A study of Mus musculus with 3 samples.

Results

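Conventional dendritic cells type 2 (cDC2) are described here in sorted non-parenchymal cells of mouse liver: 73 of 3230 kept cell barcodes (2.26%, exact binomial 95% interval 1.78 to 2.83) met the rule for them. A barcode was a member if its raw counts of unique molecular identifiers (UMIs, the sequence tags that mark single captured transcripts) summed to at least 3 for the lectins Cd209a, Clec10a and Mgl2 and reached at least 10 for H2-Ab1, with at most 1 for Xcr1 and Clec9a, at most 2 for Siglech and at most 2 for Clec4f, Cd5l and Marco. Members were thus chosen by these measured values. Xcr1 and Clec9a mark cDC1, Siglech marks plasmacytoid dendritic cells (pDC), and Clec4f, Cd5l and Marco mark Kupffer cells. A barcode was kept if it held 200 or more genes and no more than 20% of its UMIs were mitochondrial.

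The study asked how the stereochemistry of lipid nanoparticles (LNPs) bears on their uptake and on mRNA delivery. Cells came from Ai14 (LSL-Tomato) mice, in which Cre recombination switches on a red fluorescent protein, 3 h after systemic injection of 20a-LNP, 20mix-LNP or PBS. Both LNPs carried Cre mRNA at 0.3 mg/kg, all mice shared the reporter allele, and each treatment has 1 droplet library. How many mice went into a library, how old they were and which stained populations were sorted is not stated in the labels used here.

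The 3 libraries are known only by the barcode suffixes 1, 2 and 3, and no label or file used here ties a suffix to a treatment. No effect of either LNP on cDC2 is therefore reported, and library values stand under their suffix. There are no replicates: cells of 1 library share their source, no test was run, and the intervals below, all at 95%, cover counting error only. Levels are counts per 1000000 UMIs of the summed class (CPM). They count 3′ tags, which do not scale with transcript length, so a CPM is not corrected for length. A gene is called past the fold where the CPM ratio was at least 2 with at least 50 CPM in the higher class.

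Dendritic cells take up antigen, process it and present it to T cells. The cDC1 lineage depends on the transcription factors IRF8 and BATF3 and is known for cross-presentation on MHC class I. The cDC2 lineage is known for presentation on MHC class II to helper T cells, needs IRF4 in part, and in liver lies mostly near portal tracts. Cd209a (a mouse DC-SIGN homologue), Clec10a and Mgl2 (galactose-type lectins, CD301a and CD301b) are surface receptors that bind glycans. H2-DMb2 codes for a chain of H2-DM, which loads peptide onto class II molecules.

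The 73 members held 1007046 UMIs, and their medians were 13696 UMIs, 3165 genes and 3.03% mitochondrial UMIs per barcode. The 64 barcodes of a cDC1 gate, made in the same way, had a median of 18588 UMIs, and all kept barcodes had a median of 5690.5. By library, cDC2 were 13 of 761 barcodes under suffix 1 (1.71%, 0.913 to 2.90), 43 of 1119 under suffix 2 (3.84%, 2.79 to 5.14) and 17 of 1350 under suffix 3 (1.26%, 0.735 to 2.01). The interval for suffix 2 lay above that for suffix 3, and it overlapped that for suffix 1 narrowly. In the same order cDC1 were 1.58%, 2.95% and 1.41% of barcodes, so both conventional classes had their highest share under suffix 2. The filter on genes and mitochondrial UMIs had removed 37.2%, 34.2% and 21.8% of the deposited barcodes, and the part of this loss in the shares was not tested. None of the 1408 removed barcodes met the UMI limits for cDC2, but their median depth was 1760 UMIs while the shallowest member had 4544, so the limits could hardly be met there. Scrublet called 23 doublets among the kept barcodes and 0 of the 73 members, and no member's barcode sequence occurred under another suffix.

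The rule selected the members mainly through Cd209a. Cd209a UMIs were found in 68 members, Clec10a UMIs in 46 and Mgl2 UMIs in 23, and 14 members carried all 3. Cd209a with Clec10a but no Mgl2 was the most frequent combination, in 27 members, and 20 had Cd209a alone. Of the 3-gene UMI sum, 66.1% was Cd209a, 22.9% Clec10a and 11.0% Mgl2. The sum ran from 3 to 66 UMIs with a median of 12, and H2-Ab1 from 19 to 326 with a median of 129. Clec10a and Mgl2 lie next to each other on chromosome 11 (GRCm38, 70156197 to 70170834 and 70130329 to 70137550, plus strand). In their transcripts' last 500 bases, 10.7% of the distinct 60-base words of Clec10a also occurred in Mgl2, and 5.71% of those of Mgl2 in Clec10a, so reads of this pair are uncertain to that extent.

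Summed Cd209a was at 997, 643 and 802 CPM under suffixes 1, 2 and 3. Clec10a was at 483, 234 and 150 CPM in the same order, and Mgl2 at 53.6, 178 and 55.3 CPM. Cd209a was thus present in every library, and its range was narrower than those of Clec10a and Mgl2. Clec10a was highest under suffix 1 and Mgl2 under suffix 2. A single member under suffix 3 held 61 Cd209a UMIs. These genes chose the members, so their levels are a description. After thinning every barcode to 2000 UMIs, Cd209a was still found in 64.4% of members (93.2% unthinned).

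Just inside the limit, 8 barcodes had a 3-gene sum of 3 and 3 had a sum of 4. Just outside it, 4 barcodes that met every other limit had a sum of 2, 24 had 1 and 183 had 0. The 15 members with a sum of 3 to 5 had 2261 CPM of S100a4, 286 CPM of Flt3 and 83.5 CPM of Lyz2. The 58 members with 6 or more had 1635, 179 and 877 CPM of these genes. The 28 barcodes just outside, with a sum of 1 or 2, had 1392 CPM of S100a4, 74.5 CPM of Flt3 (the receptor for the dendritic growth factor FLT3L) and 4498 CPM of Lyz2 (lysozyme, a monocyte and macrophage product). In the same order of groups Tmem176b was at 507, 523 and 629 CPM and H2-DMb2 at 262, 144 and 154 CPM. These genes thus did not separate the barcodes just outside from members. The Siglech limit did most of the exclusion: of 263 barcodes that met both lower limits, 185 exceeded it and 49 exceeded the limit on Xcr1 and Clec9a. Of 364 kept barcodes with 10 or more Siglech UMIs, 278 had a 3-gene sum of at least 3, of which 65.1% was Clec10a, so the lectins alone would not have separated cDC2 from pDC here.

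**Figure D1:**
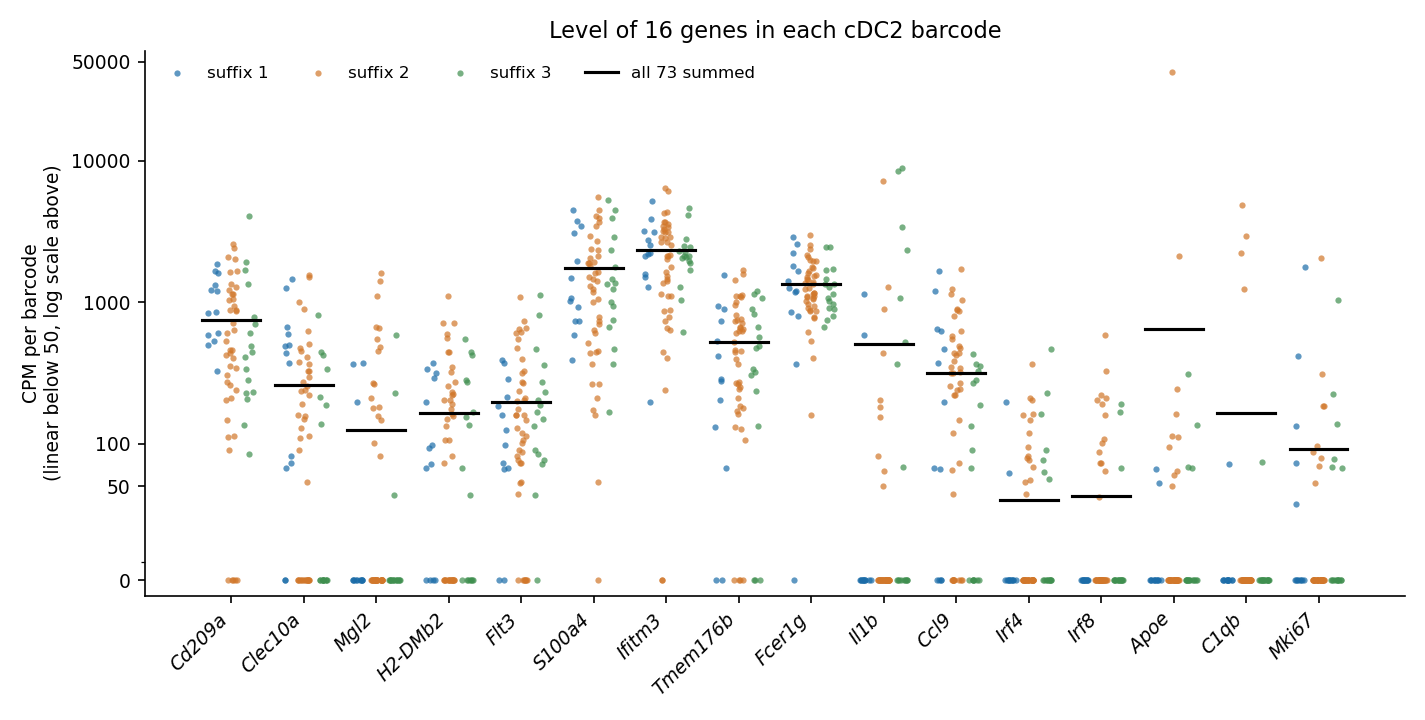
Level of 16 genes in each of the 73 cDC2 barcodes (y axis: CPM per barcode, linear below 50 and on a log scale above), coloured by library suffix; black bars are the CPM of all 73 summed. S100a4 was found in 72 and Ifitm3 in 71 members, whereas Il1b, Apoe and C1qb sat in few barcodes and 1 barcode held 93.2% of Apoe UMIs.

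The label was checked against the 4 given markers and other marker lists. H2-DMb2, the marker that the rule did not use, was at 139, 180 and 146 CPM in cDC2 and at 99.3, 63.3 and 89.0 CPM in cDC1 under suffixes 1, 2 and 3. The summed ratio was 2.08 (1.60 to 2.72). At 2000 UMIs per barcode H2-DMb2 was found in 26% of cDC2, 14.1% of cDC1 and 0.234% of 427 barcodes with UMIs of the natural killer genes Ncr1 or Klrb1c, whose median depth was 6722 UMIs. The thinned share was 3.08% in pDC and 11.1% in the 18 barcodes of a monocyte gate. Without thinning the shares were 61.6% of cDC2 and 62.5% of the more deeply sequenced cDC1. Barcodes that met every other limit had 154 CPM of H2-DMb2 at a 3-gene sum of 1 or 2 and 113 CPM at 0. Members had 262 CPM at a sum of 3 to 5 and 144 CPM at 6 or more. H2-DMb2 thus did not set the members apart from the barcodes just outside the rule. None of the 60-base words at the 3′ ends of H2-DMb2 occurred in its neighbour H2-DMb1, whereas 24% of those of H2-DMb1 occurred in H2-DMb2.

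Lists of genes known from other cell types were at uneven levels in the summed cDC2. The pDC genes Ly6d, Klk1 and Ccr9 had no UMI, against 2364, 1016 and 1156 CPM in the pDC gate, but the whole pDC list summed to 460 CPM in cDC2, with Bst2 at 222 and Tcf4 at 134 CPM, against 14930 CPM in pDC. The monocyte list summed to 2718 CPM in cDC2, 2289 CPM in cDC1, 4190 CPM in pDC and 36014 CPM in the monocyte gate. That gate itself rested on Lyz2, Chil3, F13a1 and Vcan, all in the list. UMIs of the list were found in 71 of 73 members. In it Plac8 was at 1087 CPM in cDC2, Lyz2 at 745, Ms4a4c at 264 and Ly6c2 at 62.6 CPM, whereas Chil3 and Vcan had no UMI and F13a1 had 7. The part of monocyte RNA in these values was not tested. The T cell list summed to 1 UMI. The Kupffer list summed to 364 CPM in cDC2 and 131 CPM in cDC1, and its 3 testable genes were called higher. These were C1qa, C1qb and C1qc, at 91.4, 164 and 69.5 CPM in cDC2. Of the other Kupffer genes, Timd4, Folr2 and Slc40a1 had no UMI and Vsig4 had 1. The neutrophil list summed to 41.7 CPM, and lists of B cell, natural killer, sinusoidal endothelial and hepatocyte genes summed to 141, 109, 275 and 177 CPM in cDC2 and 196, 103, 367 and 133 CPM in cDC1. The rule's own limits keep Xcr1 and Siglech low. Fcgr1 (the high-affinity IgG receptor CD64), a macrophage gene outside the rule, was found in 11 of 73 members. Markers of the cDC2A subset described in mouse spleen were close to absent, with no UMI of Esam or Dtx1, 1 UMI each of Cd4 and Clec4a4, and 5.96 CPM of Tbx21. Hes1, a Notch target, was at 66.5 CPM in cDC2 and 74.5 CPM in cDC1, with 46.3% of its cDC2 UMIs in 1 member.

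Against cDC1, cDC2 barcodes carried more S100a4, Tmem176a, Tmem176b and Fc receptor transcripts, and the cDC1 list was lower. Of 2941 genes tested for the fold, 475 were called (16.2%), 313 of them higher in cDC2 (10.6%) and 162 lower (5.51%). The gates themselves set the classes apart, so these counts describe these libraries and nothing is read from their size. The median log2 ratio of all genes tested was 0.07.

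**Figure D2:**
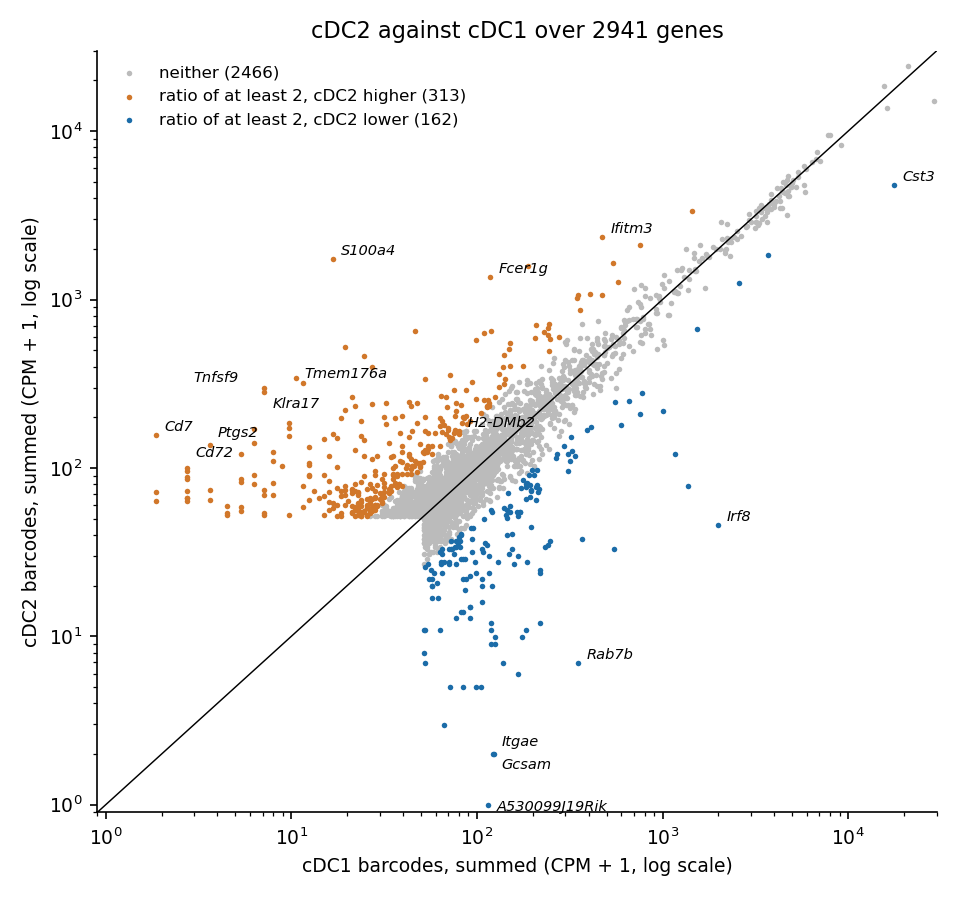
Summed level of each of 2941 genes in cDC2 (y axis) against cDC1 (x axis), both as CPM + 1 on log scales; the line marks equal levels and colours mark the 313 genes called higher and the 162 called lower in cDC2. S100a4 (1739 against 15.8 CPM) lies above the line, and Irf8 (44.7 against 1986 CPM) and Rab7b lie below it.

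S100a4 codes for a calcium-binding protein of motile cells, and it ranked first by the ratio over cDC1, counted against a floor of 3 UMIs. It was at 1871, 1618 and 1913 CPM in cDC2, against 31.6, 13 and 10.5 CPM in cDC1, under suffixes 1, 2 and 3. Summed, that was 1739 against 15.8 CPM, a ratio of 110 (69.5 to 186), with UMIs in 72 of 73 members. At 2000 UMIs per barcode it was found in 86.3% of cDC2 and 1.56% of cDC1 (98.6% and 9.38% unthinned). It was also found in 72.2% of the 18 monocyte gate barcodes and 43.1% of the natural killer gene barcodes. S100a4 was thus not limited to cDC2. S100a4 (chromosome 3, 90603771 to 90606045, plus strand, GRCm38) overlaps the annotated gene Gm42674 on the same strand.

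Other genes with a large ratio included cell surface and membrane proteins. Cd7, a surface molecule best known on lymphocytes, was at 155 CPM in cDC2 and 0.877 CPM in cDC1, a single UMI (ratio 177, 31.2 to 7023). Klra17 (Ly49Q, an inhibitory receptor for MHC class I) was at 282 and 6.14 CPM, and it was found in 65 members. Cd72 was at 94.3 and 1.75 CPM, and Tgm2, a transglutaminase, at 98.3 and 1.75 CPM. Tmem176a and Tmem176b, neighbouring genes on opposite strands that code for tetraspan membrane proteins, were at 340 and 520 CPM in cDC2 against 9.64 and 18.4 CPM in cDC1. Per library Tmem176b was at 461, 552 and 494 CPM in cDC2, against 9.03, 35.4 and 0 CPM in cDC1. Tnfsf9 (4-1BBL, a ligand that costimulates T cells), Ptgs2 (cyclooxygenase 2), Ifitm1 and Cxcl2 completed the 10 largest ratios, but they were uneven among members. Of the Ifitm1 UMIs 51.1% came from 1 member, of the Cxcl2 UMIs 81.2% did, and Ptgs2 was found in 14 members.

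Of 26 cDC2 features outside the rule, 19 could be tested, 13 were called higher in cDC2 and none lower, with a median log2 ratio of 2.09 against 0.07 for all genes. Their sum was 5489 CPM in cDC2 and 1273 CPM in cDC1. Over the 18 barcodes of a monocyte gate the same list was near even, at 5489 against 5434 CPM (ratio 1.01, 0.945 to 1.08). There 6 of its genes were called higher in cDC2 and 5 lower. In cDC2 and cDC1, Sirpa, the inhibitory receptor often used to sort cDC2, was at 150 and 16.7 CPM (ratio 9.0, 5.57 to 15.4). Itgam (CD11b) was at 172 and 8.77 CPM. Csf1r, the receptor for macrophage colony-stimulating factor, was at 199 against 30.7 CPM, and Cd300a at 338 against 51.7 CPM. Clec12a, a fixed cDC2 marker, went the other way without reaching the fold, at 110 CPM in cDC2 and 177 CPM in cDC1 (ratio 0.622, 0.489 to 0.788). Genes of the dendritic lineage that both classes share lay close together: Flt3 was at 197 and 223 CPM (ratio 0.883, 0.729 to 1.07) and Zbtb46, a transcription factor of conventional dendritic cells, at 48.7 and 53.5 CPM (0.910, 0.612 to 1.35).

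Among transcription factors, Irf8 was at 0, 65.2 and 31.6 CPM in cDC2, against 2244, 2022 and 1786 CPM in cDC1, under suffixes 1, 2 and 3. The summed ratio was 0.0225 (0.0164 to 0.0302). Irf4 was low in absolute terms, at 10.7, 44.1 and 63.2 CPM in cDC2 and no UMI in cDC1, so that it was at least 16.2-fold higher in cDC2 against a floor of 3 counts over the class. Zeb2, which in mice restrains the cDC1 fate, was at 233 against 21 CPM, and Klf4 at 189 against 64.0 CPM. Id2 was lower, at 664 CPM in cDC2 and 1538 CPM in cDC1, and Batf3 at 89.4 against 189 CPM. Of the 20 testable factors 6 were called higher in cDC2 and 3 lower, and the summed level was 3835 against 5646 CPM, a ratio below 1 while the median log2 ratio was 0.64.

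All 12 genes of the cDC1 list that could be tested were called lower in cDC2, with a sum of 620 against 6999 CPM (ratio 0.0885, 0.0815 to 0.0961). The rule kept Xcr1 and Clec9a low, so a low level of their companions is a description of that choice. Itgae (CD103) and Gcsam had 1 UMI each in cDC2, against 122 and 121 CPM in cDC1. Rab7b, a small GTPase of late endosomes, was at 5.96 against 349 CPM, and the lincRNA A530099J19Rik had no UMI against 114 CPM, at least 38.3-fold lower. Ppt1, a lysosomal thioesterase, was at 77.5 against 1365 CPM, and Tlr3, the sensor of double-stranded RNA, at 10.9 against 217 CPM. Outside the list, Cd36, a scavenger receptor, was at 4.97 against 166 CPM, and Cst3 (cystatin C) at 4767 against 17593 CPM.

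**Figure D3:**
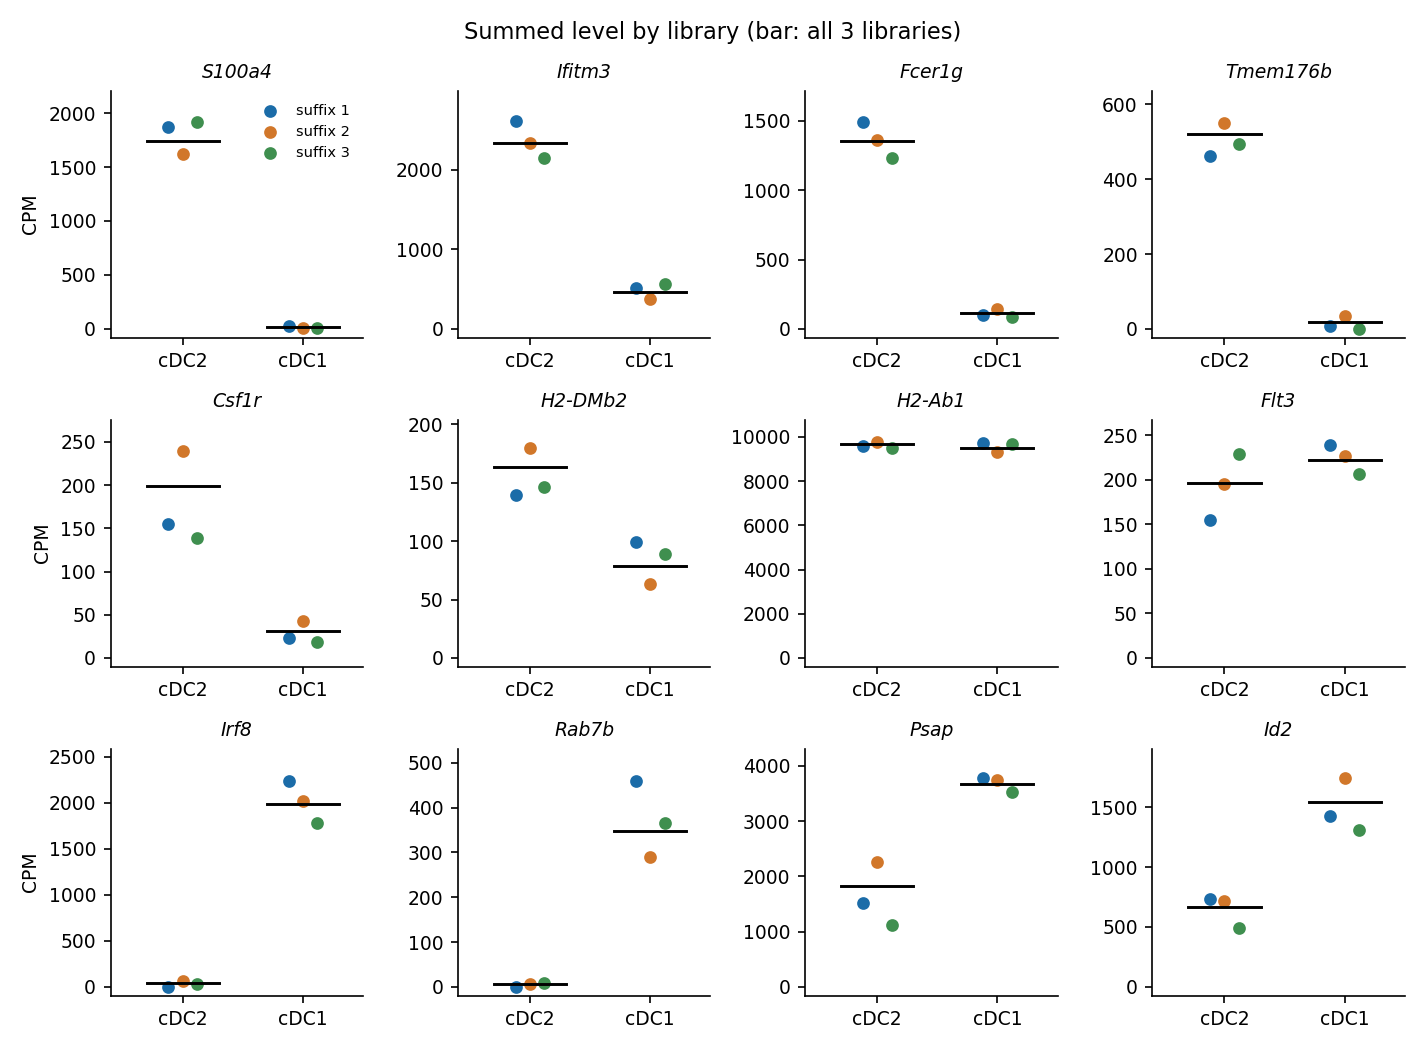
Summed CPM (y axis) of 12 genes in cDC2 and cDC1 by library suffix; bars are the values of all 3 libraries summed. cDC2 and cDC1 do not overlap for S100a4, Ifitm3, Fcer1g, Tmem176b, Csf1r, H2-DMb2, Irf8, Rab7b, Psap and Id2, and they overlap for H2-Ab1 and Flt3. The 12 genes were picked for display. The share of all tested genes without overlap is not given here, so nothing is read from a lack of overlap.

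The MHC class II genes made up a large share of the transcripts in both classes, with a list sum of 51087 CPM in cDC2 and 43979 CPM in cDC1 (ratio 1.16, 1.15 to 1.18). Cd74, the invariant chain, was at 18476 against 15595 CPM, H2-Aa at 9449 against 8021 CPM and H2-Eb1 at 9541 against 7805 CPM. Of 12 testable genes 3 were called higher in cDC2 and none lower: H2-DMb2, Ctss (cathepsin S, which trims the invariant chain) and Lgmn (legumain). Ctss was at 1051, 1147 and 929 CPM in cDC2, against 339, 464 and 369 CPM in cDC1. The MHC class I list was close to even, with 8707 against 9479 CPM, and Tap2 (75.5 against 173 CPM), Psmb9 (244 against 551 CPM) and Wdfy4 (180 against 594 CPM), which in mice is needed for cross-presentation, were called lower.

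Fc receptors summed to 1802 CPM in cDC2 and 343 CPM in cDC1 (ratio 5.26, 4.71 to 5.88). Of 4 testable genes 3 were called higher, against 10.6% of all genes tested. In the monocyte gate the list summed to 3201 CPM, above cDC2 (ratio of cDC2 over it 0.563, 0.514 to 0.618). Fcer1g, the signalling chain shared by several of them, was at 1491, 1360 and 1229 CPM in cDC2, against 104, 141 and 89.0 CPM in cDC1. Summed, Fcer1g was at 1351 against 117 CPM. Fcgr2b, the inhibitory IgG receptor, was at 215 against 76.3 CPM and Fcgr3 at 52.6 against 6.14 CPM. Of the C-type lectins that could be tested 4 of 6 were called higher. Among them Clec4b1 was at 140 against 5.26 CPM and Clec4a2, an inhibitory receptor, at 117 against 14.9 CPM.

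Genes of chemotaxis differed between the classes in both directions. Ccr2, which guides cells to CCL2, was at 496 against 352 CPM, below the fold. Ccr1 was at 81.4 against 4.38 CPM and Cx3cr1, the fractalkine receptor, at 84.4 against 4.38 CPM, whereas Cxcr3 was at 3.97 against 71.0 CPM. Gpr183 (EBI2), an oxysterol receptor that positions cDC2 in mouse spleen, was at 182 against 31.6 CPM. Among ligands, 6 of 10 testable genes were called higher and 2 lower. Ccl9 was at 375, 384 and 126 CPM in cDC2, against 0, 22.3 and 0 CPM in cDC1, and Ccl6 at 338, 271 and 103 against 40.6, 68.9 and 18.3 CPM. Both were lowest under suffix 3 in cDC2.

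Interferon-inducible membrane proteins were high. Ifitm3, which limits the entry of enveloped viruses through endosomes, was at 2611, 2335 and 2150 CPM in cDC2, against 519, 380 and 568 CPM in cDC1 (summed ratio 4.98, 4.53 to 5.48). Ifitm2 was at 653 against 118 CPM, and 2.27% of the 60-base words at the 3′ ends of either gene occur in the other. Of 13 testable genes of the interferon list 3 were called higher (Ifitm3, Gbp2 and Ifi27l2a) and Cxcl9 was called lower, and in cDC2 1 member held 37% of Gbp2 and 57% of Cxcl9 UMIs. Cxcl9 over cDC1 was 1.78 under suffix 2 and 1.57 without suffix 3. For the list the median log2 ratio was -0.08. Isg15 was at 26.8, 153 and 170 CPM in cDC2, against 22.6, 89.4 and 204 CPM in cDC1, so suffix 1 was lowest in both classes.

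Lists for uptake and endosomal handling were near even. Clathrin-mediated endocytosis summed to 1668 CPM in cDC2 and 1341 CPM in cDC1 (ratio 1.24, 1.16 to 1.33), with Dab2 (52.6 against 3.51 CPM) and Bin1 (140 against 32.4 CPM) called higher. Endosome and recycling genes summed to 1718 and 1818 CPM. Macropinocytosis and actin genes summed to 5865 and 5766 CPM, and the lysosome list to 7694 and 7323 CPM. The ratios of these last lists, 1.02 and 1.05, became 0.957 and 0.988 with TMM scaling, so no direction is given. Within the lysosome list 8 of 18 testable genes were called higher, among them Ctsh (678 against 240 CPM) and Ctsa (197 against 35.1 CPM). Psap (prosaposin), by contrast, was at 1523, 2257 and 1114 CPM in cDC2 against 3788, 3738 and 3532 CPM in cDC1. Lrp1, a large endocytic receptor, was at 106 against 11.4 CPM. Cholesterol synthesis genes had no call among 7 tested, with sums of 726 and 650 CPM.

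Immediate early genes, which stress and tissue digestion can induce, summed to 5290 CPM in cDC2 and 2346 CPM in cDC1 (ratio 2.25, 2.15 to 2.36), and 9 of 13 testable genes were called higher. Junb was at 1292, 742 and 1430 CPM in cDC2, against 537, 218 and 414 CPM in cDC1, under suffixes 1, 2 and 3. Summed, Jun was at 702 against 208 CPM and Atf3 at 356 against 71.0 CPM. Heat shock genes summed to 9429 against 7294 CPM, with Hspa1a at 2100 against 755 CPM. The labels give 1 enzymatic digestion protocol for every sample, and the part of cell handling in these values was not tested.

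**Figure D4:**
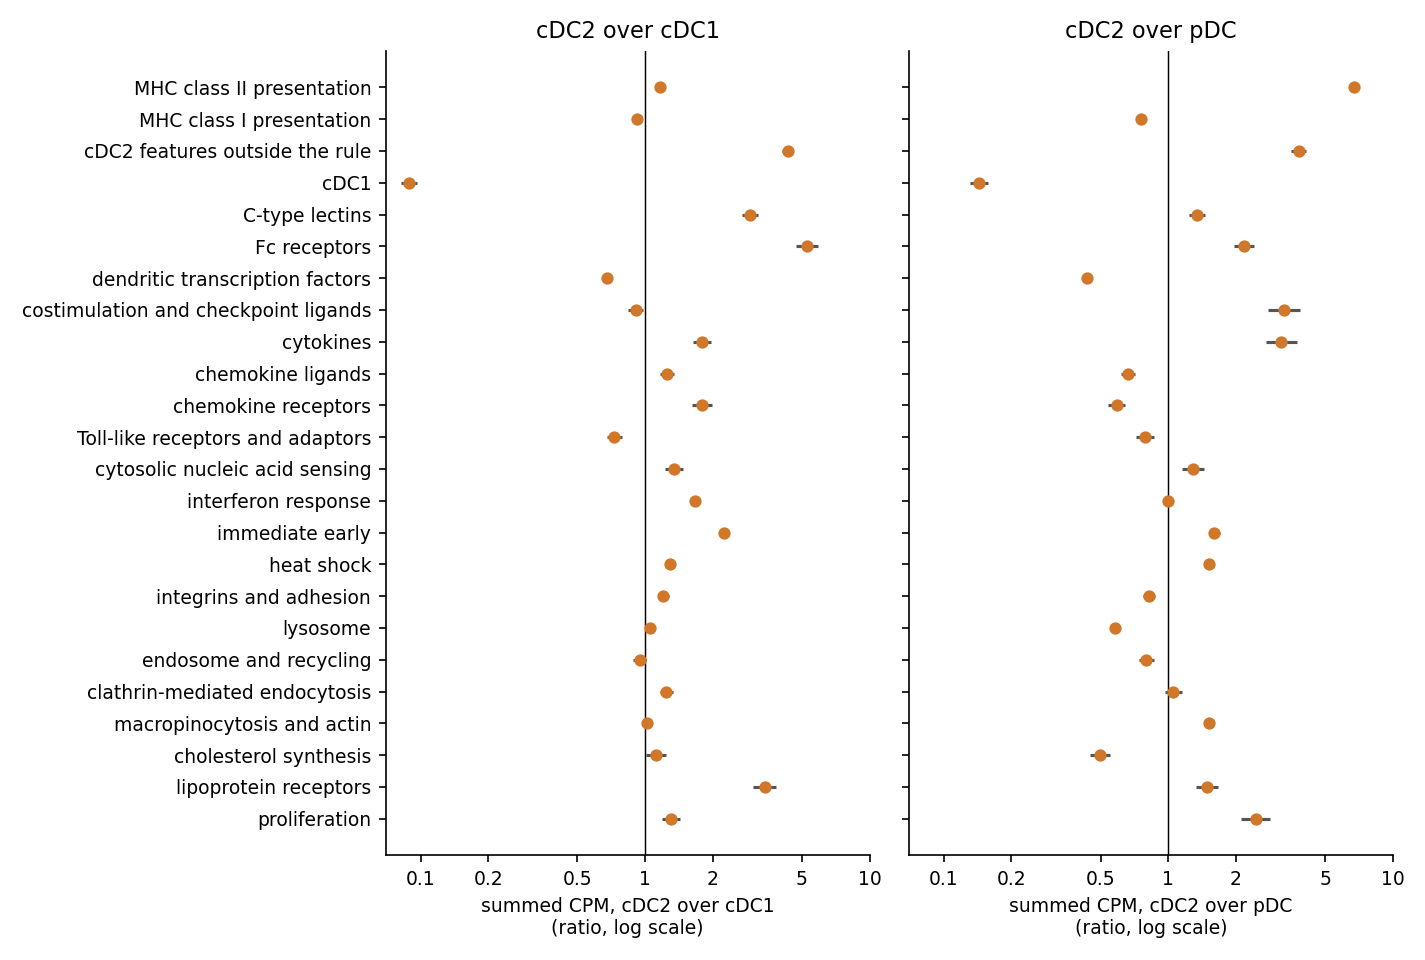
Ratio of the summed CPM of 24 gene lists in cDC2 over cDC1 (left) and over pDC (right), on log axes; points are ratios, lines their exact 95% intervals, and the vertical line marks a ratio of 1. MHC class II genes sit at 1.16 over cDC1 and at 6.69 over pDC, and that list includes the rule gene H2-Ab1. The C-type lectin list, at 1975 CPM in cDC2, includes the rule genes Cd209a, Clec10a and Mgl2, at 749, 259 and 124 CPM. The gates thus set part of its ratios. The lipoprotein receptor list includes Apoe, most of which came from 1 barcode.

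Members varied widely in a few genes. Over members thinned to 2000 UMIs, the variance-to-mean ratio was 84.6 for Apoe, 17.0 for Cxcl9, 12.6 for Il1b, 8.87 for Hspa1a and 6.42 for Rgs1, against a median of 1.1 over 1361 genes. The abundant RNAs Gm42418 (65.1) and Malat1 (20.9) also ranked high, with Actb, mt-Co3 and Dnajb1, and Gm42418 overlaps other annotated genes on the opposite strand. Of 2655 genes at 50 CPM or more, 9 had at least 50% of their UMIs in 1 member, against a median of 6.19%. Among them were Cxcl10 (95.5%), Apoe (93.2%), Cxcl2, Ly6c2 (71.4%), Serpina3g (62.7%), C1qc (58.6%), Cxcl9 (57.0%) and Ifitm1.

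**Figure D5:**
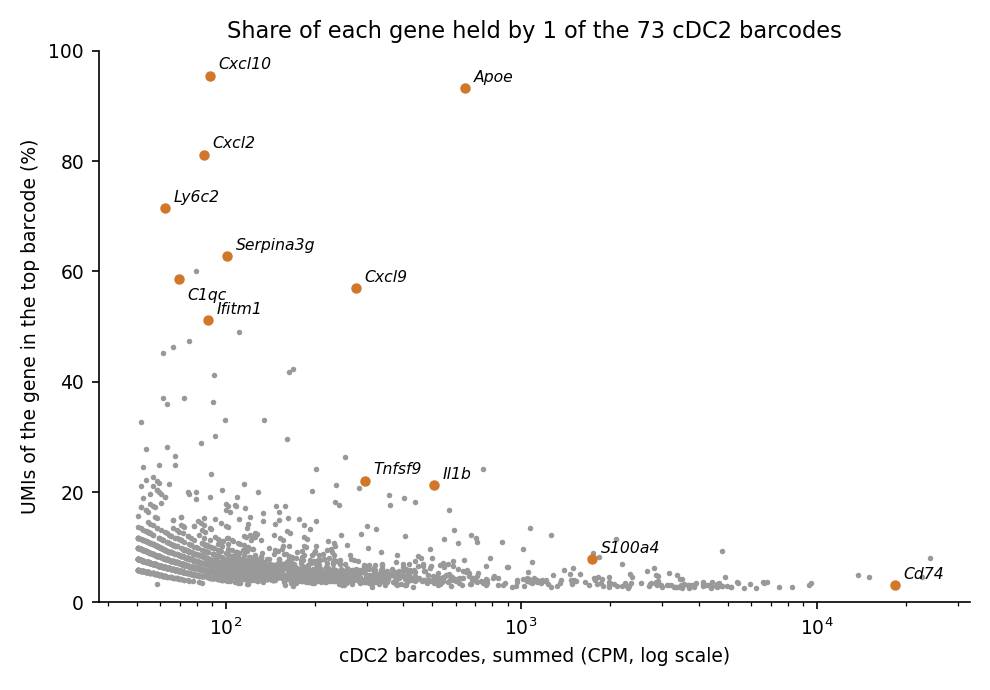
For each gene at 50 CPM or more in the summed cDC2 (x axis, log scale), the share of its UMIs in the barcode that held most of them (y axis, %). Most genes lie low, with a median of 6.19%, and 9 genes, 8 of them named, lie above 50%; Il1b lies at 21.3%.

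Complement C1q genes and Apoe sat in a few members. The 4 members with 20 or more UMIs of C1qa, C1qb and C1qc, a limit chosen after the values were seen, were all under suffix 2 and held 97.2% of C1q UMIs. Apoe was at 10.7, 1130 and 31.6 CPM in cDC2 under suffixes 1, 2 and 3, against 13.5, 59.6 and 44.5 CPM in cDC1. Summed, Apoe was at 646 against 45.6 CPM, which counts as called higher, but without the 4 members it was at 21 CPM in cDC2. The Kupffer list, led by the C1q genes, summed to 64.3, 608 and 39.5 CPM in cDC2, against 18.1, 255 and 20.9 CPM in cDC1. Suffix 2 was highest in both conventional classes. In pDC the list summed to 114, 150 and 177 CPM, so cDC2 were above pDC under suffix 2 and below them under suffixes 1 and 3, with a ratio of 0.348 without suffix 2. A list of monocyte-derived and macrophage genes summed to 123, 1473 and 265 CPM in cDC2, against 63.2, 156 and 73.3 CPM in cDC1. C1qb was at 164 CPM in cDC2 and 2.10 CPM without them. The Kupffer genes Timd4, Folr2 and Slc40a1 had no UMI in any member, and the part of other cells' RNA in these 4 barcodes was not tested. Without them 473 genes were called against cDC1.

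Il1b (interleukin 1 beta, an inflammatory cytokine) was at 107, 231 and 1423 CPM in cDC2, against 58.7, 13 and 390 CPM in cDC1, under suffixes 1, 2 and 3. Suffix 3 was highest in both classes, and in cDC2 few barcodes held most of the UMIs. The 12 members with 5 or more Il1b UMIs held 97.5% of them, 1 under suffix 1, 4 under suffix 2 and 7 under suffix 3. The limit was chosen after the values were seen, and 8 members had 1 to 4 UMIs. These 12 are a range of 1 gene and not a cell type.

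The same 12 members carried more of other inducible transcripts than the 53 members without an Il1b UMI, at median depths of 14885 and 13696 UMIs. Tnfsf9 was at 945 and 168 CPM, Ptgs2 at 592 and 34.7 CPM, and Ccrl2, a chemerin receptor, at 440 and 26.3 CPM. Rgs1, a regulator of G protein signalling, was at 2129 and 208 CPM, Cd83, a surface protein of activated dendritic cells, at 798 and 118 CPM, and Atf3 at 1048 and 223 CPM. Ptgs2 UMIs were found in 8 of the 12 and in 5 of the 53, and Ccrl2 UMIs in 11 of the 12 and 12 of the 53. The 8 members with 1 to 4 Il1b UMIs had 39.4 CPM of Tnfsf9 and 19.7 CPM of Ptgs2. They had 49.3 CPM of Cd83 and 49.3 CPM of Atf3, all below the 53 with none. For Rgs1 (325 CPM) and Ccrl2 (29.6 CPM) the 8 lay between the 53 and the 12. S100a4 had the opposite order, at 793 CPM in the 12 and 2020 CPM in the 53. Without suffix 3, 5 members with 5 or more Il1b UMIs remained, against 44 with none; there Tnfsf9 was at 679 and 117 CPM, Ptgs2 at 477 and 31.8 CPM, and Cd83 at 563 and 92.0 CPM. Cxcl2 had no UMI in those 5. The lectin Cd209a was at 701 and 780 CPM in the 12 and the 53, and H2-Ab1 at 11113 and 9276 CPM.

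Proliferation genes were also concentrated. In 8 members (2, 3 and 3 under suffixes 1, 2 and 3) Mki67 and Top2a summed to 4 or more UMIs, and these held 88.4% of those UMIs; 6 of 64 cDC1 and 1 of 67 pDC barcodes reached the same limit, also chosen after the values were seen. Ccr7, the receptor that guides mature dendritic cells to lymph nodes, was found in 4 members and Fscn1 in 1. 

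Across libraries, 1212 genes at 100 CPM or more in cDC2 had a median ratio of 1.38 between the highest and the lowest library. For this ratio, library values below a floor of 3 counts were raised to that floor. The widest were Apoe (70.2), Cxcl9 (28.5), C1qb (24.2), Ptgs2 (20.1) and Ccrl2 (16.7). Cxcl9, an interferon gamma-inducible chemokine, was at 10.7, 458 and 67.2 CPM in cDC2, against 135, 257 and 1864 CPM in cDC1. Its highest library thus differed between the classes, and 57.0% of its UMIs in cDC2 came from 1 member. Ptgs2 was at 16.1, 89.9 and 324 CPM in cDC2, and Tnfsf9 at 225, 139 and 703 CPM. Lyz2 was at 391, 1140 and 119 CPM. With 13 and 17 members under suffixes 1 and 3, single barcodes weigh on these values, and which library had which treatment cannot be told.

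Against pDC, cells that produce type I interferon, cDC2 had far more class II, S100a4 and Ifitm3 transcripts. Of 3636 genes 1320 were called (36.3%), 437 higher (12%) and 883 lower (24.3%). TMM scaling moved all ratios by 0.32 on the log2 scale and turned the split: 33.1% of calls were higher in cDC2 by CPM and 54.5% with TMM. The 67 pDC barcodes were those with at most 2 lectin UMIs, and those under suffix 2 had a median of 15.2% mitochondrial UMIs. The MHC class II list summed to 51087 CPM in cDC2 and 7637 CPM in pDC (ratio 6.69, 6.48 to 6.91), and 11 of 12 testable genes were called higher. The sums include H2-Ab1, at 9667 against 1089 CPM. The cDC2 rule asked for at least 10 H2-Ab1 UMIs and the pDC gate set no such limit. Higher class II in cDC2 is thus in part a description of that choice. S100a4 had 1739 CPM in cDC2 and a single UMI in pDC (ratio 931, 167 to 36802), and Ifitm3 2340 against 13.1 CPM. Il1b, Pid1 and Ccl9 had no UMI in pDC, and they were at least 90.6-, 57.6- and 56.7-fold higher in cDC2 against 3 counts over the class. Wfdc17 was at 459 against 7.47 CPM, and Lyz2, Atf3, Tnfsf9 and Ifitm2 completed the 10 largest ratios. In the other direction Ly6d, Ccr9, Klk1 and the immunoglobulin light chain gene Iglc3 had no UMI in cDC2, at least 793-, 388-, 341- and 238-fold lower, and Cox6a2 had 1 UMI against 1479 CPM. All 13 testable genes of the pDC list were called lower. Without the lectin limit 293 barcodes passed the pDC gate. Clec10a was at 259 CPM in cDC2 and 509 CPM in those pDC, Cd209d at 23.8 and 536 CPM, S100a4 at 1739 and 20.5 CPM and Ifitm3 at 2340 and 23.1 CPM.

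Against monocytes the comparison rested on few barcodes. The gate on Chil3, F13a1 and Vcan found 18, of which 3 were rich in S100a8 and S100a9. Of 3224 genes 876 were called (27.2%), 409 higher (12.7%) and 467 lower (14.5%); of the calls 46.7% were higher by CPM and 58.1% with mitochondrial, ribosomal protein, haemoglobin and hepatocyte genes left out. The 5 smallest ratios were of S100a8, S100a9, Retnlg, Lcn2 and Hp. Of these, S100a8, S100a9, Retnlg and Lcn2 are known from neutrophils, whereas Hp is in the monocyte list used here. Without the 3 barcodes rich in S100a8 and S100a9, 819 genes were called. Largest in cDC2 were Ccnd1 (439 CPM against no UMI, at least 28.0-fold), Klra17, Ddit4, Klrd1, Ckb, H2-Oa, Cxcl9, Rgs1, Bcl11a and Cd7. A second gate, added after seeing the data and resting on Ly6c2, Ms4a4c, F13a1, Fn1, Ccr2 and Csf1r, held 87 barcodes and gave 527 calls. These barcodes also held macrophage transcripts, with Apoe at 646 CPM in cDC2 and 7531 CPM in the second gate and C1qb at 164 and 1853 CPM, while Ly6c2 was at 62.6 and 164 CPM. The part of macrophages in the comparison was not tested. Against it Klrd1 was at 220 and 6.06 CPM (ratio 36.4), H2-Oa, which tempers class II peptide loading, at 214 and 6.06 CPM, Flt3 at 197 and 12.1 CPM, and Irf4 at 42.7 and 2.42 CPM. Zbtb46 was at 48.7 CPM in cDC2 with no UMI in the second gate, at least 13.4-fold higher. H2-DMb2 was at 164 and 27.9 CPM. Other genes named above as higher in cDC2 than in cDC1 went the other way here. Sirpa was at 150 and 425 CPM, and Csf1r, a gene of this gate, at 199 and 820 CPM. Tmem176a was at 340 and 415 CPM and Tmem176b at 520 and 580 CPM (ratio 0.897, 0.791 to 1.02). The cDC2 marker Clec12a was at 110 and 288 CPM. Cd14 was at 36.7 and 401 CPM and Cebpb at 88.4 and 1157 CPM. The ratios of Cxcl9 (0.999, 0.836 to 1.19), Rgs1 (1.07, 0.941 to 1.21) and Ifitm3 (1.09, 1.02 to 1.16) over the second gate were near 1.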

How the data were processed

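The authors deposited 1 matrix of UMI counts for 31053 genes and 4638 barcodes, written by Cell Ranger (per the file headers, release 3.1.0). The submitters' processing notes give mm10 as the build. Sample sheets were not used. UMI counts were summed per gated class and divided by the class total (CPM). The cDC2 rule was given; the cDC1, pDC and monocyte gates were built alike. Gate genes of either class were left out of each comparison. Intervals were exact Poisson, exact binomial (Clopper-Pearson) or exact conditional for ratios. Totals per class, 1007046 UMIs for cDC2 and 1140568 for cDC1, set a floor of 3 counts at 2.98 and 2.63 CPM. UMIs count molecules, so PCR copies are collapsed.

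Genes named are the rule genes and given markers, the 10 largest and 5 smallest ratios per comparison (against a floor of 3 counts, same direction in each suffix with at least 20 cells of both classes, which was suffix 2 for cDC1 and pDC and none for monocytes), the leading and called members of 42 lists, the 5 widest over suffixes and the 10 most variable; others were named after their values were seen, and some genes are not reported here. Members and lists were chosen with earlier results of these data known. Of 687 list entries 4 had no row. Gene positions are from GENCODE M21 (GRCm38), which held all 634 identifiers looked up. Detection shares used 2000 UMIs per barcode (2 pDC barcodes left out). Tools were Python 3.11.15, scanpy 1.11.5 with Scrublet, and edgeR 4.0.16 for TMM factors. The ratio calculation was tested on simulated data. S100a4, Irf8, Pid1, Ifitm2, Ccr9, Malat1 and mt-Co3 overlap another annotated gene on the same strand, and the labels do not say how such reads were counted.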

Additional observations from a re-analysis of the deposited data

How the results depend on the processing

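No paired analysis was possible because each treatment has 1 library and none can be assigned to a suffix. The cDC2 share of 2.26% was 3.22% with at least 500 genes and at most 10% mitochondrial UMIs, 0.978% with gates on 2000 UMIs per barcode, and 1.42% to 2.98% with 1 library left out. Gates on 2000 UMIs left 26 cDC2, 10 cDC1 and 10 monocyte barcodes and gave 2977 calls against cDC1 and 3049 against monocytes, where 475 and 876 were reported. A minimum of 20 CPM gave 956, 2431 and 1996 calls against cDC1, pDC and monocytes, no minimum gave 4553, 6248 and 6125, and a ratio of at least 3 gave 231, 754 and 468. The second monocyte gate gave 527. Doublet removal, TMM scaling, the reduced denominator, equal weight per barcode, lectin limits of 5 or 2, leaving out the C1q-rich members and leaving out each library kept all 3 counts within 1.5 times, from 464 to 609 against cDC1.

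Some ratios turned. With 1 library left out, the Kupffer list over pDC ran from 0.348 to 3.65, Apoe over cDC1 from 0.686 to 18.5 and over pDC from 0.379 to 11.6, Cxcl9 over cDC1 from 0.0352 to 1.57, and Hp over cDC1 from 0.280 to 1.01. The Kupffer list over pDC was 0.565 and 0.223 under suffixes 1 and 3 alone. Apoe over cDC1 was 0.792 and 0.710 under suffixes 1 and 3 alone and 0.972 without its richest member; over pDC it was 0.217, 0.440 and 0.609. C1qb over pDC was 0.714 under suffix 3. Cxcl9 over cDC1 was 1.78 under suffix 2. S100a9 over cDC1 was 0.947 under suffix 2, from few counts. The cause of these changes was not tested. Small classes limit what can be seen: 3 counts equal 15.7 CPM in the monocyte gate and 16.1 CPM in cDC2 under suffix 1.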
